A study of Mus musculus with 18 samples.

Results

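The change in gene expression between day 0 and day 7 of differentiation was compared between mouse embryonic stem cells that lack a working Pax7 gene (Pax7-/-) and cells that have it (Pax7+/+). Pax7 encodes a transcription factor of the paired box family. It is known from muscle satellite cells and the neural crest. Mouse embryonic stem cells are kept undifferentiated by LIF. Grown as aggregates without LIF they form embryoid bodies, in which extraembryonic endoderm and other early lineages appear. 12 of the 18 arrays of the series were chosen by the genotype and day in their titles. They form 4 groups of 3: Pax7-/- embryoid bodies at day 7, Pax7+/+ embryoid bodies at day 7, Pax7-/- stem cells at day 0 and Pax7+/+ stem cells at day 0. All 4 groups are of the strain F1 (C57Bl6N x 129Sv). Stem cells grew in KO-DMEM with LIF, and embryoid bodies in KO-DMEM without LIF to which RA and ITS were added, so the step from day 0 to day 7 is a change of culture as well as of age. How the Pax7 allele was altered, and whether the arrays of a genotype come from 1 clone, is not given in the sources used here. The labels call the 3 arrays of a group biological replicates, and p-values measure the spread between them.

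For each of 22180 genes the interaction was calculated, which is the change (day 7 minus day 0) in Pax7-/- minus the same change in Pax7+/+. All values are log2 intensities or differences of them, so an interaction of 1 means that the step from day 0 to day 7 was 2-fold more positive in Pax7-/-. Errors of interactions and steps are standard errors of the limma fit. The arrays fall into a narrow set (standard deviation over probe sets 1.37 to 1.45) and a wide set (1.79 to 1.85), and the fit has the set as a term. Correlations over genes, which are not independent replicates, were 0.911 to 0.994 within a set and 0.674 to 0.822 between sets. Values per array are given in the order of replicates 1, 2 and 3. In both Pax7-/- groups replicate 2 was the wide array, in Pax7+/+ at day 7 replicates 2 and 3, and in Pax7+/+ at day 0 replicate 3. Levels are therefore compared between narrow arrays or between wide arrays. Within a set a group has 1 or 2 arrays, and the wide arrays of day 0 are 1 against 1. The order of groups within a set is thus a description. Genes were named on these same arrays, so this order also follows in part from their choice. The targeted gene is first. Pax7 read 6.32, 4.99 and 5.86 log2 on Pax7-/- arrays and 6.35, 4.68 and 5.09 on Pax7+/+ arrays of day 7, against 6.37, 4.76 and 6.02 on Pax7-/- arrays and 6.06, 6.22 and 4.79 on Pax7+/+ arrays of day 0. On narrow arrays of day 0 the genotypes overlapped, and on wide arrays of day 7 the Pax7-/- reading lay between those of Pax7+/+. The Pax7 interaction was -0.03 ± 0.33 (limma, adjusted p = 0.987). Its Pax7+/+ step was 0.04 ± 0.24 (limma, adjusted p = 0.964). On wide arrays Pax7 read 4.68 to 5.09, near the medians of these arrays (4.55 to 4.65). Whether Pax7 signal stood above background was not tested. The position of its probes relative to the changed sequence is not stated either, so the labels cannot be checked by it.

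Of the 22180 genes, 107 (0.482%) had an interaction with an adjusted p under 0.05 (limma, Benjamini-Hochberg over all genes), and 84 of them (0.379% of all genes) reached 2-fold. In 73 genes (0.329%) the step was more positive in Pax7-/-, and in 34 (0.153%) more negative. The median interaction of all genes was -0.01. Over all genes 10629 interactions (47.9%) were positive and 11551 negative. Counts in the lists below stand beside these shares, and no list was tested. At an unadjusted p under 0.05 there were 2095 genes. All 107 had the same sign in the narrow and in the wide arrays, which follows in part from their choice on these same arrays. These calls need the array set in the fit: without it 0 of 22180 genes passed and 184 had an unadjusted p under 0.05, although 106 of the 107 kept their sign. With 1 array left out the count ran from 49 without Pax7+/+ day 7 replicate 3 to 213 without Pax7+/+ day 7 replicate 1, the only narrow array of that group. It was 55 without Pax7+/+ day 7 replicate 2, 60, 81 and 57 without Pax7-/- day 7 replicates 1, 2 and 3, 63, 89 and 64 without Pax7-/- day 0 replicates 1, 2 and 3, and 59, 73 and 84 without Pax7+/+ day 0 replicates 1, 2 and 3. 45 of the 107 genes, 31 positive and 14 negative, passed in all 12 of these fits.

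In the positive genes, falls in Pax7+/+ were more frequent than rises in Pax7-/-, as they were over all genes. The Pax7-/- step passed as a rise in 34 of the 73 and as a fall in 6, against 2.05% and 1.82% of all genes (3.86% in either direction). The Pax7+/+ step passed as a fall in 48 and as a rise in 0, against 3.14% and 2.54% of all genes (5.69% in either direction). 9 genes passed in both steps with opposite signs, 6 in both with the same sign, 25 in the Pax7-/- step alone and 33 in the Pax7+/+ step alone. The median Pax7-/- step of the 73 was 0.47 and the median Pax7+/+ step -0.75. Because the interaction is the difference of these steps, their opposite signs follow in part from how the genes were chosen.

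**Figure D1:**
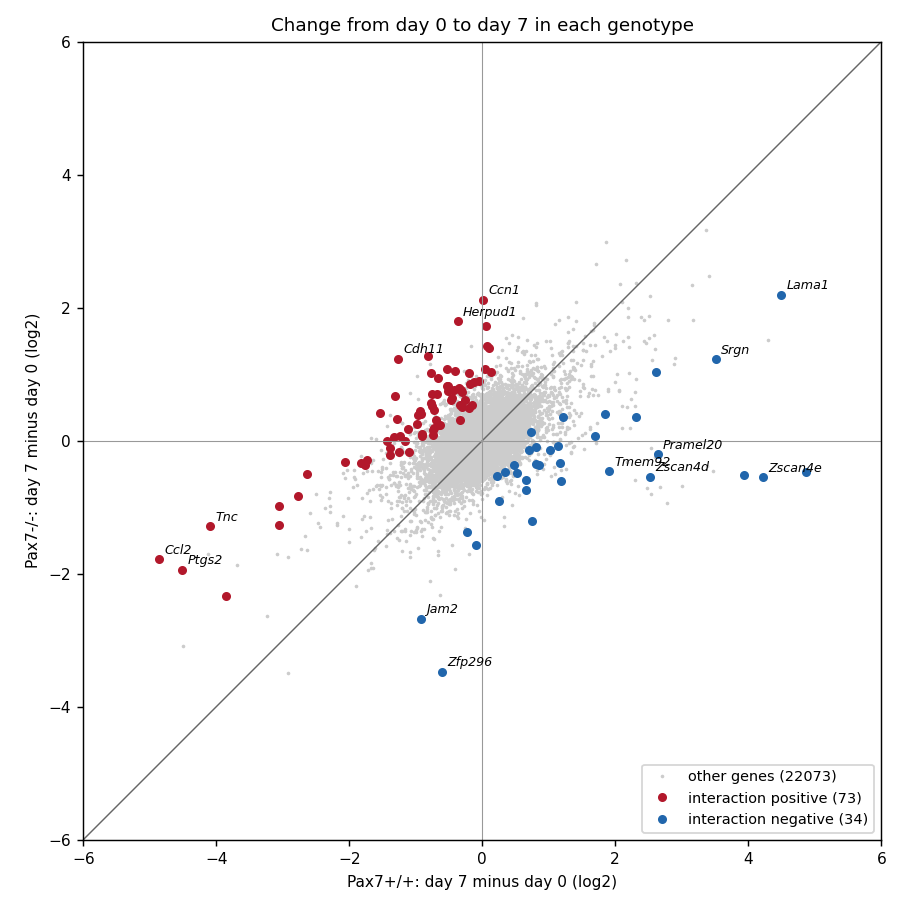
Change between day 0 and day 7 (day 7 minus day 0, log2) in Pax7-/- on the vertical axis and in Pax7+/+ on the horizontal axis, 1 point per gene. The 73 genes with a positive interaction (red) lie above the diagonal of equal change and the 34 with a negative one (blue) below it, and Lama1, Srgn and Tnc are among the genes that changed the same way in both genotypes by different amounts.

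Seen as genotype differences, 72 of the 73 positive genes had opposite signs at day 7 and day 0. At day 7, where 0.627% of all genes passed, Pax7-/- was higher by the test in 18 of them and lower in 0 (0.32% and 0.307% of all genes). At day 0, where 1.28% of all genes passed, it was lower in 52 and higher in 0 (0.893% and 0.388%). The day 0 difference was the larger one in 56 of the 73. In the 34 negative genes the day 7 difference was larger in 19 and the day 0 difference in 15. Pax7-/- was lower at day 7 in 16 and higher in 1, and higher at day 0 in 11. Their Pax7-/- step rose in 3 and fell in 8, and their Pax7+/+ step rose in 26 and fell in 1. The median differences, Pax7-/- minus Pax7+/+, were 0.41 at day 7 and -0.84 at day 0 in the positive genes, and -0.82 at day 7 and 0.55 at day 0 in the negative ones. The comparisons of steps and of days share arrays with the interaction. Because the interaction is also the day 7 difference minus the day 0 difference, opposite signs follow in part from the choice of genes.

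**Figure D2:**
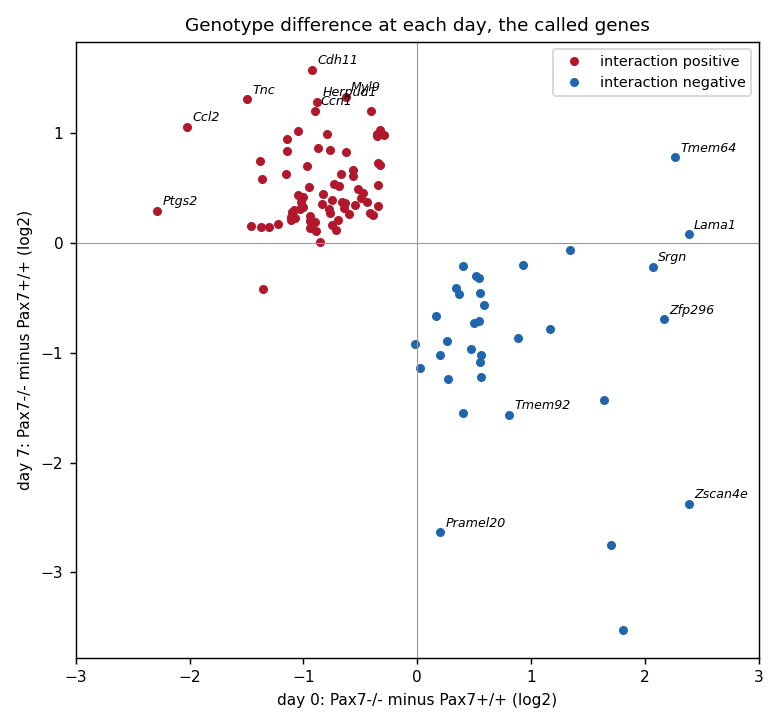
Pax7-/- minus Pax7+/+ (log2) at day 7 on the vertical axis and at day 0 on the horizontal axis for the 107 genes that passed. Most positive genes (red) lie left of 0 and above 0, the larger part of their distance being on the day 0 axis, while Zscan4e, Pramel20 and Tmem92 (blue) lie below 0 at day 7.

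Genes of the extracellular matrix and of mesenchymal cells were among the largest positive interactions. Of 22 measured genes of the fibroblast and fibrillar matrix list, 3 passed, all positive, against 0.329% of all genes. A positive interaction was found in 21, against 47.9% of all genes. The median was 0.79 (0.46 on narrow and 1.28 on wide arrays) against -0.01 over all genes. The 3 were Cdh11, Dcn and Mmp2. Cdh11 encodes a cadherin of mesenchymal cells. Cdh11 read 7.90, 9.59 and 7.67 log2 on Pax7-/- arrays and 6.47, 7.93 and 7.96 on Pax7+/+ arrays of day 7, against 6.33, 8.36 and 6.75 on Pax7-/- arrays and 7.28, 7.54 and 9.41 on Pax7+/+ arrays of day 0. In each set it stood above Pax7+/+ at day 7 and below it at day 0. It rose by 1.24 in Pax7-/- and fell by 1.27 in Pax7+/+, and its interaction was 2.51 ± 0.24 (adjusted p = 0.00016). Mmp2, a gelatinase that cuts basement membrane collagen, rose by 1.08 in Pax7-/-, while its Pax7+/+ step of -0.53 did not pass (adjusted p = 0.0848). The Mmp2 interaction was 1.61 ± 0.24 (adjusted p = 0.00429).

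Dcn read 4.67, 6.05 and 4.86 log2 on Pax7-/- arrays and 4.10, 5.17 and 5.04 on Pax7+/+ arrays of day 7, against 5.58, 7.52 and 5.41 on Pax7-/- arrays and 6.80, 6.39 and 8.49 on Pax7+/+ arrays of day 0. Decorin, which Dcn encodes, is a small proteoglycan that binds collagen fibrils. In each set the Pax7-/- readings lay above those of Pax7+/+ at day 7 and below them at day 0. It fell by 3.05 in Pax7+/+, and its Pax7-/- step of -0.98 did not pass (adjusted p = 0.0855). The Dcn interaction was 2.08 ± 0.43 (adjusted p = 0.0426), and it failed in 10 of the 12 fits with 1 array left out (adjusted p up to 0.138). Dcn read below the array median on 3 arrays, all of day 7. The fibrillar collagen genes Col1a1 and Col3a1 had interactions of 1.16 ± 0.47 and 0.78 ± 0.54 that did not pass (adjusted p = 0.424 and 0.724).

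The proteinase inhibitors Timp2 and Timp1 and the guidance ligand Slit2 belong to no list here and were named by size. Timp2 read 6.48, 7.81 and 6.59 log2 on Pax7-/- arrays and 5.68, 7.27 and 7.11 on Pax7+/+ arrays of day 7, against 6.62, 8.45 and 7.33 on Pax7-/- arrays and 8.78, 8.40 and 9.37 on Pax7+/+ arrays of day 0. Pax7-/- was above Pax7+/+ at day 7 and below it at day 0 in both sets. Timp2 fell by 2.63 in Pax7+/+, and its Pax7-/- step of -0.50 did not pass. Its interaction was 2.13 ± 0.29 (adjusted p = 0.0023). Timp1 fell in both genotypes, by 0.83 in Pax7-/- and by 2.77 in Pax7+/+, with an interaction of 1.94 ± 0.26 (adjusted p = 0.00221). Slit2, a secreted ligand of Robo receptors, rose by 0.67 in Pax7-/- and fell by 1.31 in Pax7+/+, an interaction of 1.98 ± 0.22 (adjusted p = 0.000468). Ccnd2, a D-type cyclin of the G1 phase, rose by 1.28 in Pax7-/-, and its step of -0.82 in Pax7+/+ did not pass (adjusted p = 0.0534). The Ccnd2 interaction was 2.10 ± 0.33 (adjusted p = 0.00646).

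Matricellular proteins are secreted into the matrix and act on cell surfaces, and several are targets of Yap, the coactivator that binds TEAD factors on DNA. Of 13 measured genes of this list 4 passed, all positive: Tnc, Ccn1, Ccn2 and Thbs1. The median was 1.30, with 0.76 on narrow and 1.36 on wide arrays, and 12 of the 13 were positive. Over all genes 47.9% were positive and 0.329% passed as positive. The 4 genes passed in different ways. Ccn1 and Ccn2 rose in Pax7-/- by 2.12 and 1.73, while their Pax7+/+ steps were 0.02 and 0.05 (adjusted p = 0.983 and 0.899). Tnc and Thbs1 fell in both genotypes, by 1.28 and 2.34 in Pax7-/- and by 4.09 and 3.86 in Pax7+/+.

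Ccn1 read 8.43, 10.34 and 9.05 log2 on Pax7-/- arrays and 7.16, 9.48 and 9.47 on Pax7+/+ arrays of day 7, against 6.39, 8.56 and 6.50 on Pax7-/- arrays and 7.63, 7.11 and 9.40 on Pax7+/+ arrays of day 0. Ccn1 was higher in Pax7-/- than in Pax7+/+ at day 7 and lower at day 0 in both sets. The Ccn1 interaction was 2.11 ± 0.28 (adjusted p = 0.00221) and that of Ccn2, also known as connective tissue growth factor, 1.68 ± 0.17 (adjusted p = 0.00016). Tnc read 6.92, 8.49 and 6.64 log2 on Pax7-/- arrays and 5.71, 7.08 and 7.08 on Pax7+/+ arrays of day 7, against 8.02, 9.69 and 8.19 on Pax7-/- arrays and 10.06, 9.73 and 10.59 on Pax7+/+ arrays of day 0. Tenascin C, the product of Tnc, had Pax7-/- readings above Pax7+/+ on all comparable arrays at day 7. On the wide arrays of day 0 they were 9.69 in Pax7-/- and 10.59 in Pax7+/+. The Tnc interaction was 2.81 ± 0.44 (adjusted p = 0.00646). Thrombospondin 1 (Thbs1) differed by 0.15 at day 7 (adjusted p = 0.901) and by -1.37 at day 0 (adjusted p = 0.00116), an interaction of 1.52 ± 0.26 (adjusted p = 0.0119).

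Actin cytoskeleton genes were another positive group. The smooth muscle and contractile list had 16 measured genes, of which 4 passed, all positive (all genes: 0.329%). In it 13 were positive (all genes: 47.9%), with a median of 0.53 (0.27 on narrow and 0.66 on wide arrays). Myl9 read 7.55, 7.71 and 7.57 log2 on Pax7-/- arrays and 6.29, 6.77 and 6.54 on Pax7+/+ arrays of day 7, against 7.15, 7.65 and 6.76 on Pax7-/- arrays and 7.61, 7.26 and 8.58 on Pax7+/+ arrays of day 0. Myl9, a regulatory light chain of non-sarcomeric myosin, was higher in Pax7-/- than in Pax7+/+ on every array of day 7. At day 0 it was lower in Pax7-/- within each set. It fell by 1.54 in Pax7+/+, and its Pax7-/- step of 0.42 did not pass. The Myl9 interaction was 1.96 ± 0.30 (adjusted p = 0.00572). Tpm1, a tropomyosin that lines actin filaments, rose by 0.79 in Pax7-/- with an interaction of 1.14 ± 0.19 (adjusted p = 0.0108).

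Acta2 read 8.53, 9.18 and 8.49 log2 on Pax7-/- arrays and 8.34, 8.03 and 7.79 on Pax7+/+ arrays of day 7, against 8.83, 9.52 and 8.81 on Pax7-/- arrays and 9.94, 9.59 and 10.26 on Pax7+/+ arrays of day 0. In each set Acta2, smooth muscle actin, was higher in Pax7-/- at day 7 and lower at day 0. It fell by 2.06 in Pax7+/+, and its Pax7-/- step of -0.32 did not pass. Its interaction was 1.74 ± 0.33 (adjusted p = 0.0267). That of Tagln, an actin-binding protein, was 1.28 ± 0.25 (adjusted p = 0.0333). Acta2 failed in 9 and Tagln in 8 of the 12 fits with 1 array left out, with adjusted p up to 0.0842 and 0.108. Snai2, a repressor of epithelial genes in the neural crest, rose by 1.01 in Pax7-/- and fell by 0.77 in Pax7+/+ (interaction 1.79 ± 0.30, adjusted p = 0.0115). It was the 1 gene of 17 in the neural crest list that passed, and the median of that list was -0.03. Vim, the intermediate filament vimentin, was the 1 gene of 21 in the neural progenitor list that passed (interaction 1.02 ± 0.21, adjusted p = 0.0391), and it failed in 10 of the 12 fits with 1 array left out (adjusted p up to 0.11). That list had a median of 0.18.

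Fibroblast markers had interactions of the same sign as these groups. All 9 also belong to the fibroblast and fibrillar matrix list. Fibroblasts are cells that a stem cell culture can hold, and the labels do not mention them. 9 of 9 were measured and had a positive interaction (all genes: 47.9%), and 1 of them (Dcn) passed (all genes: 0.329%). The median was 0.92 (0.41 on narrow and 1.44 on wide arrays). Their mean level was 5.63 to 5.70 log2 on the narrow and 6.15 on the wide array of Pax7-/- at day 7, against 5.45 on the narrow and 5.59 to 5.65 on the wide arrays of Pax7+/+. At day 0 it was 5.56 to 5.62 and 6.02 in Pax7-/-, against 5.89 to 5.99 and 6.94 in Pax7+/+. Pax7+/+ stem cells were thus the highest group in each set, and Pax7+/+ embryoid bodies the lowest. The marker Lum read below the array median on all 12 arrays. The part of fibroblast RNA in the matrix, cytoskeletal and stress genes was not tested. In bulk RNA, fewer cells of a type and less RNA per cell cannot be told apart.

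**Figure D3:**
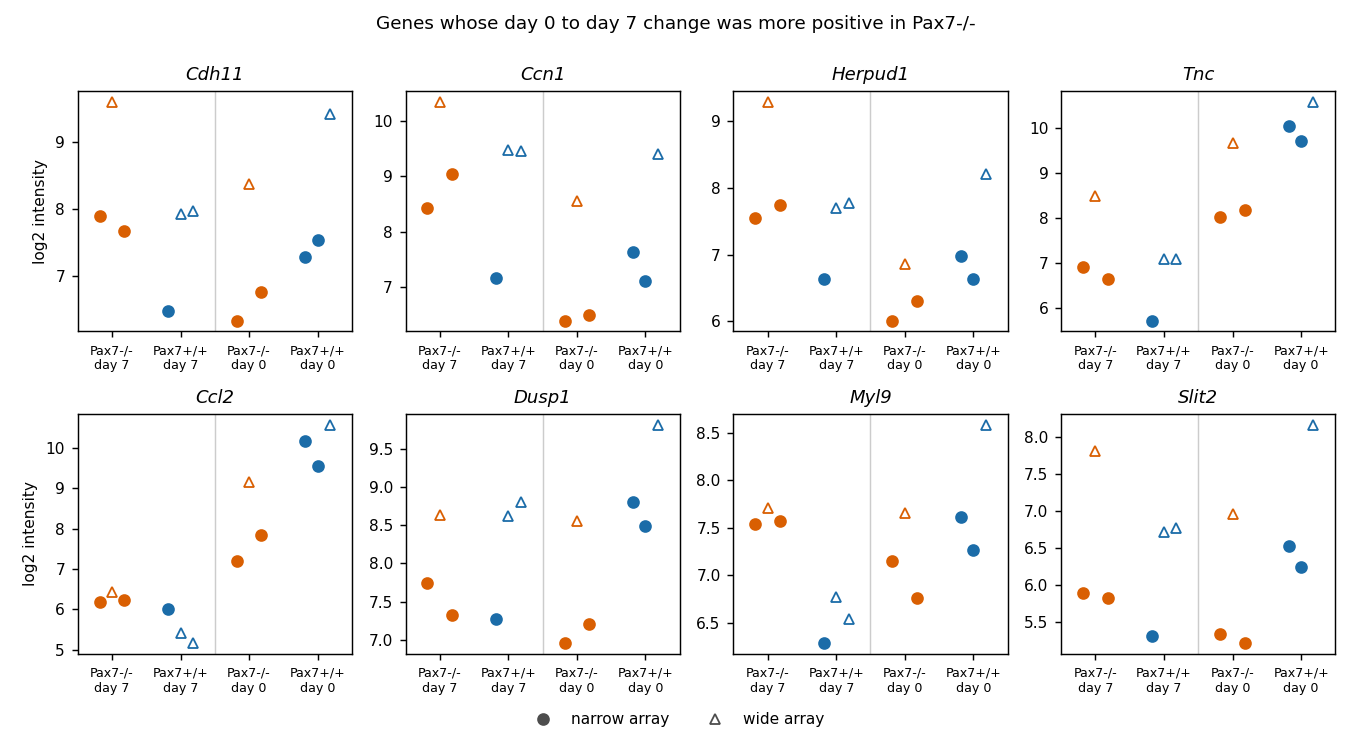
Log2 intensity of Cdh11, Ccn1, Herpud1, Tnc, Ccl2, Dusp1, Myl9 and Slit2, genes with a positive interaction on each of the 12 arrays (orange Pax7-/-, blue Pax7+/+, day 7 left of day 0; filled circles narrow and open triangles wide arrays). Cdh11 and Herpud1 are higher in Pax7-/- at day 7 and lower at day 0 within each set, while Tnc and Ccl2 are lower at day 7 than at day 0 in both genotypes.

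Stress-response genes formed another positive group. Amino acid shortage and unfolded proteins in the endoplasmic reticulum both raise translation of the transcription factor ATF4, which switches on genes of amino acid transport, tRNA charging and protein quality control. Of 25 measured genes of the amino acid and ER stress list 3 passed, all positive (all genes: 0.329%). In it 24 were positive (all genes: 47.9%), with a median of 0.70 (0.59 on narrow and 0.67 on wide arrays). Herpud1 read 7.55, 9.28 and 7.75 log2 on Pax7-/- arrays and 6.64, 7.70 and 7.77 on Pax7+/+ arrays of day 7, against 6.01, 6.86 and 6.31 on Pax7-/- arrays and 6.98, 6.63 and 8.21 on Pax7+/+ arrays of day 0. Herpud1, a membrane protein of ER-associated degradation, was above Pax7+/+ at day 7 and below it at day 0 in each set. It rose by 1.80 in Pax7-/-, and its Pax7+/+ step of -0.37 did not pass. The Herpud1 interaction was 2.17 ± 0.29 (adjusted p = 0.00221).

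Ddit4, an inhibitor of mTORC1 that is induced by stress, rose by 1.01 in Pax7-/- (interaction 1.21 ± 0.18, adjusted p = 0.00432). Slc3a2, the heavy chain of amino acid transporters, fell by 0.74 in Pax7+/+ (interaction 0.90 ± 0.17, adjusted p = 0.0241), and it failed in 6 of the 12 fits with 1 array left out (adjusted p up to 0.0705). Chac1, an ATF4 target that degrades glutathione, had an interaction of 1.95 ± 0.42 that did not pass (adjusted p = 0.0528). 5 genes outside the list were chosen after their values were seen, because they act in the same steps of metabolism. These were the leucyl-tRNA synthetase gene Lars (1.42 ± 0.24), the seryl-tRNA synthetase gene Sars (0.91 ± 0.19), the tRNA export receptor gene Xpot (0.83 ± 0.16), the alanine transaminase gene Gpt2 (1.27 ± 0.16) and the neutral amino acid transporter gene Slc1a4 (1.04 ± 0.20), with adjusted p = 0.0134, 0.0469, 0.0331, 0.00188 and 0.0256. Lars and Gpt2 passed in all 12 fits with 1 array left out, while Sars failed in 11, Xpot in 8 and Slc1a4 in 6 of them (adjusted p up to 0.127, 0.0961 and 0.0798).

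Immediate early genes, which respond to growth factors and stress within minutes to hours, had 18 measured members. 4 passed, all positive (Ier3, Dusp1, Egr1 and Atf3), against 0.329% of all genes. In the list 16 were positive (all genes: 47.9%), with a median of 0.75. Dusp1 read 7.75, 8.63 and 7.33 log2 on Pax7-/- arrays and 7.27, 8.62 and 8.80 on Pax7+/+ arrays of day 7, against 6.96, 8.55 and 7.21 on Pax7-/- arrays and 8.80, 8.48 and 9.81 on Pax7+/+ arrays of day 0. Dusp1, a phosphatase of MAP kinases, was lower in Pax7-/- at day 0 in each set (difference -1.46, adjusted p = 0.000476). At day 7 the difference was 0.16 (adjusted p = 0.876). The Dusp1 interaction was 1.62 ± 0.24 (adjusted p = 0.00432). Ier3, an early response gene that affects cell survival, and Egr1, a zinc finger factor, fell by 1.74 and 1.39 in Pax7+/+, and their Pax7-/- steps of -0.29 and -0.22 did not pass. Their interactions were 1.45 ± 0.20 and 1.17 ± 0.18 (adjusted p = 0.0023 and 0.00574).

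Atf3, a stress-induced factor that is also an ATF4 target, rose by 1.08 in Pax7-/-, against a Pax7+/+ step of 0.04 (adjusted p = 0.939). Its interaction was 1.04 ± 0.19 (adjusted p = 0.025), and it failed in 7 of the 12 fits with 1 array left out (adjusted p up to 0.0795). Fos, a subunit of the AP-1 factor, had an interaction of 1.78 ± 0.41 that did not pass (adjusted p = 0.0821).

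The promoters of genes that lead these groups were searched for known sites of stress, TEAD, serum response and AP-1 type factors, 250 bases before to 50 after each start (RefSeq, GRCm38.p6), on both strands. The motifs were chosen after the values were seen, and promoters were at hand for 16918 genes, 59 of the 73 positive and 21 of the 34 negative ones. The 5 promoters below show matches of 4 of the 5 motifs searched, each in a leading gene. Capitals mark the amino acid response element TGATGNAAN in Herpud1 and Atf3, the TEAD site GGAATG in Ccn1, the CArG box in Myl9 and the cyclic AMP response element TGACGTCA in Dusp1. Each was the only match of its motif in that promoter and overlapped no match of the others.
Herpud1, chr8:94386179-94386478, plus strand: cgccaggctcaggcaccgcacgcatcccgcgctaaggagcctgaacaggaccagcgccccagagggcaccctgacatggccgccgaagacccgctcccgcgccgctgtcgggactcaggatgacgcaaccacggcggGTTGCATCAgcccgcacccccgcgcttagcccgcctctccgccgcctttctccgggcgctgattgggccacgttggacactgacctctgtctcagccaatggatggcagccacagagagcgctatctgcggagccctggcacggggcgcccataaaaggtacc
Atf3, chr1:191183284-191183583, minus strand: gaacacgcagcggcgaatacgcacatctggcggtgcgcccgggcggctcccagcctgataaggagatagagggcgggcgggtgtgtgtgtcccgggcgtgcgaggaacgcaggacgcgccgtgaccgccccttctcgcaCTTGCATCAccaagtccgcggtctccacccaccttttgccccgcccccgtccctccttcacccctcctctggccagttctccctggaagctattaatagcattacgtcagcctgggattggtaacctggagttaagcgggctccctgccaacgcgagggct
Ccn1, chr3:145649936-145650235, minus strand: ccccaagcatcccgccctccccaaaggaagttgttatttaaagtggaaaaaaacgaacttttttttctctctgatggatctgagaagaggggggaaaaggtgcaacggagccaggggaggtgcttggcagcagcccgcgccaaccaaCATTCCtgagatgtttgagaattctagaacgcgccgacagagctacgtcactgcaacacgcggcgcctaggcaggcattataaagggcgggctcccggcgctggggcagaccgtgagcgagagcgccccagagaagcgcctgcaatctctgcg
Myl9, chr2:156775214-156775513, plus strand: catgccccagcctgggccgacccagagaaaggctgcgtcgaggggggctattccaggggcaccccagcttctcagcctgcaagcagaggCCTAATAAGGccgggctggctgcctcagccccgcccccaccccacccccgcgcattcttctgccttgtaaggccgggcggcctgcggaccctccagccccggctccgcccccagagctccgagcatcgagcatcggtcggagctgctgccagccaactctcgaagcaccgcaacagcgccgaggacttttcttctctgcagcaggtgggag
Dusp1, chr17:26508423-26508722, minus strand: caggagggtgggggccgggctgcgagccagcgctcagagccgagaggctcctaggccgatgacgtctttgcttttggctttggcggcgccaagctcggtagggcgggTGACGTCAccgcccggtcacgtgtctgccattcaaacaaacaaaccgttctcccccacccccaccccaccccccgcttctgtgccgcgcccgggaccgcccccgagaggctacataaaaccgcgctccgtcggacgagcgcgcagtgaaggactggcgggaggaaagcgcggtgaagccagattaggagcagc

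The match begins 113 bases before the start in Herpud1, 111 in Atf3, 103 in Ccn1, 161 in Myl9 and 143 in Dusp1. The amino acid response element was found in 7 of the 59 positive promoters (11.9%), 1 of the 21 negative ones (4.76%) and 3.9% of all 16918. In the amino acid and ER stress list it was found in 6 of 22 (27.3%), against 1 of 14 in the immediate early list and 0 in the 8 matricellular and 13 smooth muscle promoters. The TEAD site was in 16.9% of the positive, 14.3% of the negative and 15.4% of all promoters, and in 6 of 8 of the matricellular list, 8 of 13 of the smooth muscle list, 2 of 14 of the immediate early list and 0 of 22 of the stress list. The CArG box was in 3 of 59 (5.08%), 0 of 21 and 1.67% of all, and in 4 of 13 (30.8%) of the smooth muscle, 2 of 14 of the immediate early, 1 of 22 of the stress and 0 of 8 of the matricellular list. The cyclic AMP response element was in 3.39%, 4.76% and 2.64% of the positive, negative and all promoters, and in 2 of 14 of the immediate early list, 1 of 13 of the smooth muscle list and 0 of the other two lists. The AP-1 site TGANTCA was in 6 of 59, 4 of 21 and 8.39% of all. It was in 0 of 14 promoters of the immediate early and AP-1 list, 0 of 8 of the matricellular, 2 of 13 of the smooth muscle and 2 of 22 of the stress list. In the stress list, Herpud1 was the only passing gene with the amino acid response element. In the matricellular list, Ccn1 was the only passing gene with the TEAD site. In the smooth muscle list, Myl9 alone of the passing genes had the CArG box, and Acta2 and Tpm1 had the TEAD site. Most matches of these motifs in these lists were thus in genes that did not pass. A match is a description of letters and shows no binding.

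Among signalling molecules, Ccl2, the chemokine that attracts monocytes, had the largest positive interaction, 3.08 ± 0.62 (adjusted p = 0.0392). Ccl2 read 6.18, 6.44 and 6.24 log2 on Pax7-/- arrays and 6.01, 5.40 and 5.16 on Pax7+/+ arrays of day 7, against 7.21, 9.16 and 7.84 on Pax7-/- arrays and 10.16, 9.54 and 10.57 on Pax7+/+ arrays of day 0. At day 0 the Pax7-/- arrays were below the Pax7+/+ arrays in each set, and at day 7 they were above them. Ccl2 fell by 1.78 in Pax7-/- and by 4.87 in Pax7+/+. It failed in 9 of the 12 fits with 1 array left out (adjusted p up to 0.117).

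Ptgs2 read 5.21, 6.20 and 5.13 log2 on Pax7-/- arrays and 5.13, 6.29 and 6.02 on Pax7+/+ arrays of day 7, against 6.66, 9.15 and 6.55 on Pax7-/- arrays and 9.47, 9.22 and 10.53 on Pax7+/+ arrays of day 0. Ptgs2, cyclooxygenase 2 of prostaglandin synthesis, fell by 1.94 in Pax7-/- and by 4.52 in Pax7+/+, and the genotypes overlapped at day 7. Its interaction was 2.58 ± 0.47 (adjusted p = 0.0225), and it failed in 8 of the 12 fits (adjusted p up to 0.0728). In the chemokine and inflammation list 2 of 20 genes passed, Ccl2 and Ptgs2, both positive (all genes: 0.329%), and the median was 0.47. In the interferon response list 0 of 22 genes passed (all genes: 0.482%). In it 20 were positive (all genes: 47.9%), with a median of 0.54 (0.20 on narrow and 0.80 on wide arrays). B2m, the light chain of class I molecules, had 1.70 ± 0.39 (adjusted p = 0.0786) and the deubiquitinase gene Usp18 1.45 ± 0.44 (adjusted p = 0.224).

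Among the most negative interactions were those of genes known from 2-cell-like cells, a rare state of stem cell cultures in which genes of the 2-cell embryo are on. Zscan4 genes, which act at telomeres, mark this state. Of 15 measured genes of the list 4 passed, all negative (Zscan4e, Zscan4d, Pramel20 and Tmem92), against 0.153% of all genes. In the list 14 were negative, against 11551 of all 22180 genes. The median was -1.56, with -0.63 on narrow and -2.81 on wide arrays. Zscan4e read 4.98, 8.44 and 5.53 log2 on Pax7-/- arrays and 7.68, 9.89 and 9.93 on Pax7+/+ arrays of day 7, against 5.72, 9.12 and 5.74 on Pax7-/- arrays and 4.47, 4.29 and 4.65 on Pax7+/+ arrays of day 0. In each set Zscan4e was highest in Pax7+/+ at day 7 and lowest in Pax7+/+ at day 0, and Pax7-/- lay between them at both days. It rose by 4.22 in Pax7+/+ (adjusted p = 0.00118), and its Pax7-/- step of -0.54 did not pass (adjusted p = 0.724). The Zscan4e interaction was -4.76 ± 0.94 (adjusted p = 0.0336).

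Zscan4d read 5.55, 6.42 and 5.42 log2 on Pax7-/- arrays and 6.62, 7.92 and 7.64 on Pax7+/+ arrays of day 7, against 5.38, 7.69 and 5.94 on Pax7-/- arrays and 4.81, 4.71 and 4.56 on Pax7+/+ arrays of day 0. On narrow arrays the order of groups was that of Zscan4e, while on wide arrays the Pax7-/- reading of day 0 lay within the Pax7+/+ readings of day 7. The Zscan4d interaction was -3.07 ± 0.58 (adjusted p = 0.0258). All 5 measured Zscan4 genes were negative, with a median of -3.72. The copies are near identical, so a probe set can read more than its named gene, and the 5 are not independent. Tmem92 read 5.26, 4.78 and 5.43 log2 on Pax7-/- arrays and 6.35, 6.68 and 6.86 on Pax7+/+ arrays of day 7, against 5.32, 5.72 and 5.79 on Pax7-/- arrays and 5.21, 4.79 and 4.42 on Pax7+/+ arrays of day 0. Tmem92, a membrane protein gene, had its highest readings in Pax7+/+ at day 7, without overlap with the other groups. It rose by 1.91 in Pax7+/+, and its Pax7-/- step of -0.46 did not pass (interaction -2.37 ± 0.33, adjusted p = 0.0023).

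Pramel20 read 5.08, 4.73 and 4.98 log2 on Pax7-/- arrays and 6.45, 7.94 and 8.28 on Pax7+/+ arrays of day 7, against 5.07, 4.95 and 5.36 on Pax7-/- arrays and 5.19, 5.46 and 4.13 on Pax7+/+ arrays of day 0. Pramel20 is of the large Prame-like family, whose copies are also alike. It rose by 2.64 in Pax7+/+ with no overlap at day 7, and its Pax7-/- step was -0.20 (adjusted p = 0.833). The Pramel20 interaction was -2.83 ± 0.53 (adjusted p = 0.025). Over the 29 measured Pramel genes 27 were negative (all genes: 11551 of 22180), and the median was -0.29. As negative, 3 passed (Pramel20, Pramel21 and Pramel33), against 0.153% of all genes. With 1 array left out, Zscan4e failed in 10, Zscan4d in 6 and Pramel20 in 8 of the 12 fits, with adjusted p up to 0.105, 0.0824 and 0.0793. Pramel21 failed in 10 and Pramel33 in 7 of them (adjusted p up to 0.143 and 0.0849).

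Genes around Tmem92 on chromosome 11 were looked at after its value was seen. Of the 11 protein-coding genes made up of Tmem92 and up to 5 on either side of it in the reference annotation, 8 were negative and 3 passed. Over all genes 11551 of 22180 were negative and 0.153% passed as negative. Gm11543 read 3.74, 7.00 and 3.98 log2 on Pax7-/- arrays and 7.59, 9.47 and 9.64 on Pax7+/+ arrays of day 7, against 4.16, 7.69 and 4.29 on Pax7-/- arrays and 3.58, 3.45 and 3.67 on Pax7+/+ arrays of day 0. This predicted gene was lower in Pax7-/- on all arrays of day 7 that can be compared, and higher on those of day 0. Its fitted interaction was -5.34 ± 0.91 (adjusted p = 0.0134). On 7 of the 12 arrays, among them all 3 of Pax7+/+ at day 0, it read below the array median (4.55 to 4.94 log2), where signal was not separated from background, so the size of its change is uncertain. Gm11546 had -4.45 ± 0.93 (adjusted p = 0.0451) with 6 such arrays, and it failed in 10 of the 12 fits with 1 array left out (adjusted p up to 0.143). The same limit touches Zscan4d on 3 and Zscan4e and Tmem92 on 2 arrays, all of Pax7+/+ at day 0. It also touches Pramel21 on 11, Pramel33 on 4 and Pramel20 on 1 of the 12 arrays. AA623943, Gm11544 and Gm11545 had -2.85 ± 0.74, -2.03 ± 0.75 and -1.47 ± 0.44, which did not pass (adjusted p = 0.13, 0.362 and 0.221).

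Another locus was chosen after its values were seen. Sfmbt2 encodes a Polycomb group protein of extraembryonic tissue and carries a large rodent cluster of miRNA genes in an intron. Sfmbt2 read 5.16, 7.61 and 5.26 log2 on Pax7-/- arrays and 6.05, 8.52 and 8.42 on Pax7+/+ arrays of day 7, against 4.91, 6.82 and 5.08 on Pax7-/- arrays and 4.62, 4.59 and 6.19 on Pax7+/+ arrays of day 0. It rose by 1.84 in Pax7+/+, where it was highest at day 7 in each set, and its Pax7-/- step of 0.41 did not pass. The Sfmbt2 interaction was -1.43 ± 0.23 (adjusted p = 0.00787). Of 72 miRNA genes that the annotation places inside Sfmbt2, 22 were measured. All 22 were negative (all genes: 11551 of 22180), with a median of -0.86 (-0.40 on narrow and -1.22 on wide arrays). Their median step was 0.31 in Pax7-/- and 1.08 in Pax7+/+. 1 of the 22, Mir669i, passed (-1.95 ± 0.39, adjusted p = 0.0336), and it failed in 8 of the 12 fits with 1 array left out (adjusted p up to 0.107). Mir669i read below the array median on 6 of the 12 arrays and Sfmbt2 on 3, so the sizes of their changes are uncertain. The miRNA genes are transcribed with their host and are much alike, so they are not independent of each other.

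**Figure D4:**
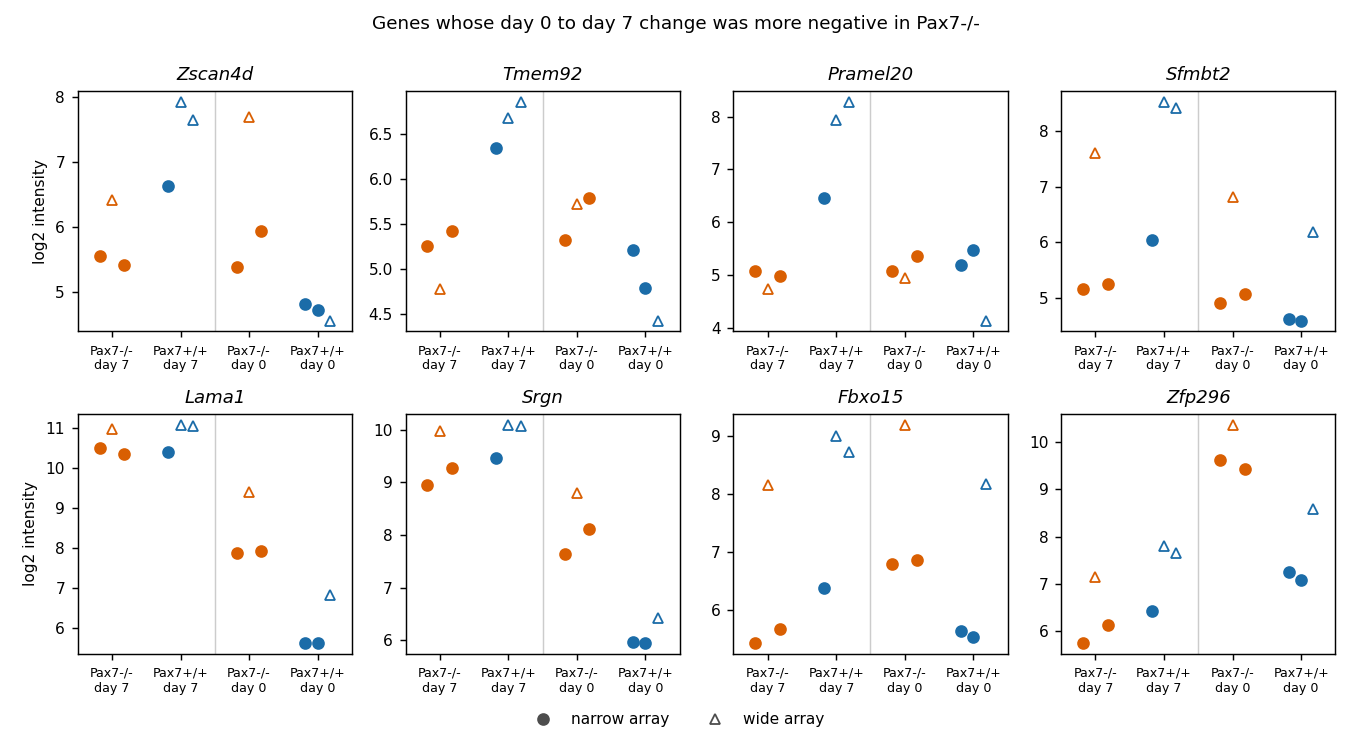
Log2 intensity of Zscan4d, Tmem92, Pramel20, Sfmbt2, Lama1, Srgn, Fbxo15 and Zfp296 on each of the 12 arrays (orange Pax7-/-, blue Pax7+/+, day 7 left of day 0; filled circles narrow and open triangles wide arrays). For Tmem92, Pramel20 and Sfmbt2 the Pax7+/+ arrays of day 7 stand highest within their set, and for Lama1 and Srgn the genotype difference passed the test at day 0 and missed it at day 7.

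Parietal endoderm lays down the thick basement membrane of the yolk sac, and its genes are among the first to rise in embryoid bodies. Of 17 measured genes of this list 3 passed, all negative (Srgn, Lama1 and Nid2), against 0.153% of all genes. In the list 13 were negative (all genes: 11551 of 22180), with a median of -0.41. The median steps of the list were 1.42 in Pax7-/- and 2.03 in Pax7+/+. Lama1 read 10.49, 10.96 and 10.34 log2 on Pax7-/- arrays and 10.41, 11.08 and 11.04 on Pax7+/+ arrays of day 7, against 7.87, 9.41 and 7.93 on Pax7-/- arrays and 5.62, 5.62 and 6.82 on Pax7+/+ arrays of day 0. Lama1, the alpha chain of the first laminin of the embryo, was higher in Pax7-/- at day 0 by 2.38 (adjusted p = 1.82e-05), in both sets. At day 7 the difference was 0.08 (adjusted p = 0.966). It rose in both genotypes, by 2.20 in Pax7-/- and by 4.50 in Pax7+/+, and the interaction was -2.30 ± 0.28 (adjusted p = 0.0014).

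Srgn read 8.95, 9.98 and 9.28 log2 on Pax7-/- arrays and 9.47, 10.10 and 10.07 on Pax7+/+ arrays of day 7, against 7.63, 8.80 and 8.11 on Pax7-/- arrays and 5.97, 5.94 and 6.41 on Pax7+/+ arrays of day 0. Srgn, the proteoglycan serglycin of secretory granules, also rose in both genotypes, by 1.23 in Pax7-/- and by 3.51 in Pax7+/+. At day 0 it was higher in Pax7-/- by 2.07 (adjusted p = 7.48e-06), and at day 7 the difference was -0.21 (adjusted p = 0.765). The Srgn interaction was -2.29 ± 0.22 (adjusted p = 0.00016). Nid2, a nidogen that links laminin and collagen IV, rose by 1.22 in Pax7+/+ (interaction -0.86 ± 0.17, adjusted p = 0.031), and it failed in 8 of the 12 fits with 1 array left out (adjusted p up to 0.102). Lgmn, the lysosomal protease legumain, rose by 1.03 in Pax7-/- and by 2.61 in Pax7+/+. Its interaction was -1.57 ± 0.31 (adjusted p = 0.031), which also failed in 8 of the 12 (adjusted p up to 0.0903).

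Of the 11 measured endoderm transcription factors 0 passed by limma. In this list 10 were negative (all genes: 11551 of 22180), with a median of -0.31 (-0.16 on narrow and -0.89 on wide arrays). Sox7 had -1.57 ± 0.45 and Gata6 -1.36 ± 0.39 (adjusted p = 0.195 and 0.188). Gata6 rose by 1.81 in Pax7-/- and by 3.17 in Pax7+/+. In the visceral endoderm and fetal liver list 0 of 23 passed and the median was 0.24. Its lowest value was that of Cubn, an endocytic receptor, with -2.78 ± 0.61 (adjusted p = 0.0609), and the adaptor gene Dab2 had -0.94 ± 0.22 (adjusted p = 0.0818). The mean level of 8 endoderm markers was 8.07 to 8.08 on narrow and 8.96 on wide arrays of Pax7-/- at day 7, against 7.81 and 8.55 to 8.73 in Pax7+/+. At day 0 it was 6.84 and 6.81 in Pax7-/-, against 6.38 to 6.40 and 5.69 in Pax7+/+. Both genotypes were higher at day 7 than at day 0, and Pax7-/- was the higher genotype in each set at both days. Of the 8 markers, which include Lama1, 6 had a negative interaction and 1, Lama1 itself, passed, with a median of -0.43 (0.02 on narrow and -1.12 on wide arrays). The part of endoderm RNA in the laminin and serglycin results was not tested.

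Naive pluripotency genes keep stem cells undifferentiated and usually fall once LIF is gone. Of 26 measured genes 2 passed, both negative (Fbxo15 and Zfp296), against 0.153% of all genes. In the list 21 were negative (all genes: 11551 of 22180), with a median of -0.39 (-0.28 on narrow and -0.56 on wide arrays). The median step was -1.13 in Pax7-/- and -0.60 in Pax7+/+. Fbxo15 read 5.43, 8.15 and 5.67 log2 on Pax7-/- arrays and 6.38, 9.00 and 8.72 on Pax7+/+ arrays of day 7, against 6.79, 9.20 and 6.87 on Pax7-/- arrays and 5.64, 5.54 and 8.17 on Pax7+/+ arrays of day 0. Fbxo15, an F-box protein gene and classic reporter of stem cells, fell by 1.20 in Pax7-/- and rose by 0.75 in Pax7+/+. In each set it was lower in Pax7-/- at day 7 and higher at day 0, and its interaction was -1.95 ± 0.19 (adjusted p = 0.00016).

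Zfp296 read 5.74, 7.14 and 6.13 log2 on Pax7-/- arrays and 6.43, 7.81 and 7.66 on Pax7+/+ arrays of day 7, against 9.61, 10.37 and 9.44 on Pax7-/- arrays and 7.26, 7.08 and 8.58 on Pax7+/+ arrays of day 0. Zfp296, a zinc finger factor of pluripotent cells, fell by 3.47 in Pax7-/-, and its Pax7+/+ step of -0.61 did not pass (adjusted p = 0.26). It was higher in Pax7-/- at day 0 by 2.17 (adjusted p = 0.000872), in both sets. The Zfp296 interaction was -2.86 ± 0.39 (adjusted p = 0.0023). Jam2, a junctional adhesion molecule, fell in both genotypes, by 2.68 in Pax7-/- and by 0.93 in Pax7+/+ (interaction -1.75 ± 0.24, adjusted p = 0.0023). Nanog and Pou5f1, core factors of the same network, had -1.52 ± 0.46 and -0.40 ± 0.27 and did not pass (adjusted p = 0.226 and 0.703). The mean level of 7 stem cell markers was 6.08 to 6.63 on narrow and 7.14 on wide arrays of Pax7-/- at day 7, against 6.66 and 7.51 in Pax7+/+. At day 0 it was 7.63 to 7.69 and 8.47 in Pax7-/-, against 7.46 to 7.58 and 8.04 in Pax7+/+. These levels were lower at day 7 than at day 0 in both genotypes, and 0 of the 7 markers read below the array median on all arrays of a group.

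Further negative genes were single members of their lists. Gjb5, a connexin of early epithelia, rose by 1.18 in Pax7+/+ (interaction -1.78 ± 0.28, adjusted p = 0.0067) and was the 1 gene of 19 in the epithelial list that passed, with a list median of -0.25. Fdft1, squalene synthase, rose by 1.01 in Pax7+/+ (interaction -1.15 ± 0.20, adjusted p = 0.0144). It failed in 1 of the 12 fits with 1 array left out, that without Pax7-/- day 0 replicate 3 (adjusted p = 0.0517). It was the 1 gene of 16 that passed in the fatty acid and sterol synthesis list. Of that list 15 were negative (all genes: 11551 of 22180), with a median of -0.51. Perp, a p53 target of desmosomes, fell by 1.37 in Pax7-/- (interaction -1.13 ± 0.19, adjusted p = 0.00906) and was the 1 gene of 18 in the p53 list that passed, with a median of -0.02. Epha4, an ephrin receptor in the FGF-ERK feedback list (1 of 20, median 0.03), had -1.41 ± 0.29 (adjusted p = 0.0454) and failed in 10 of the 12 fits (adjusted p up to 0.122). Ak4, a mitochondrial adenylate kinase in none of the lists, rose by 1.70 in Pax7+/+ (interaction -1.64 ± 0.24, adjusted p = 0.0035). In the trophoblast list 0 of 16 passed and 15 were negative (median -0.60). In the germ line list 0 of 16 passed and 14 were negative (median -0.50), against 11551 negative of all 22180 genes. Rhox6, a homeobox gene in both, had the lowest p there, with -1.40 ± 0.35 (adjusted p = 0.116), and the trophoblast homeobox gene Esx1 had -1.07 ± 0.34 (adjusted p = 0.25). The germ line gene Nanos3 had -0.59 ± 0.19 (adjusted p = 0.267).

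**Figure D5:**
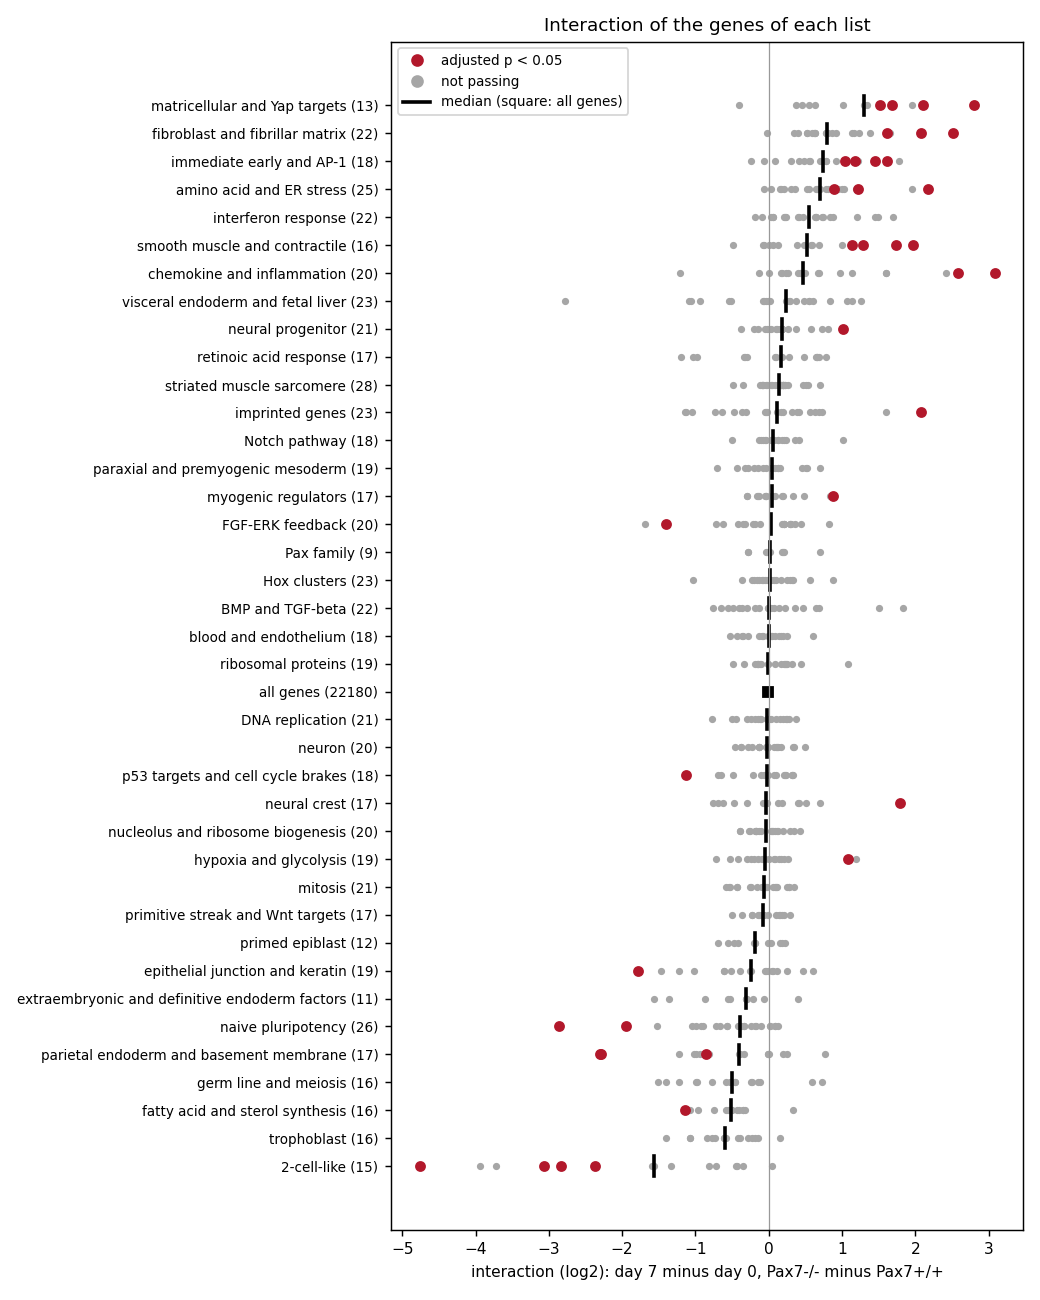
Interaction (log2) of each measured gene of the 38 lists, with genes that passed in red, other genes in grey and the list median as a black bar, and the median of all 22180 genes as a square. Medians run from -1.56 for the 2-cell-like list to 1.30 for the matricellular list, and the myogenic regulator, sarcomere, Pax and Hox lists lie within 0.2 of 0. The smooth muscle and contractile list lies at 0.53.

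With the array set in the fit, lists tied to the known roles of Pax7 lay near all genes. Of 17 myogenic regulators 1 passed, Mef2a, a factor that is also widely expressed outside muscle (0.87 ± 0.17, adjusted p = 0.0267). It rose by 0.62 in Pax7-/- and failed in 8 of the 12 fits with 1 array left out (adjusted p up to 0.0842). The median of the list was 0.04. Of 28 sarcomere genes, 19 genes of paraxial and premyogenic mesoderm and 9 Pax genes 0 passed, with medians of 0.14, 0.05 and 0.02. On wide arrays their mean levels were 4.64 to 4.86, 4.74 to 4.98 and 4.48 to 4.86 log2. The medians of these arrays were 4.55 to 4.65. Genes near background can show little change, and signal over background was not tested. The medians of these 3 lists therefore do not tell whether Pax7 acts on such genes. The sarcomere genes Acta1 and Myl4 had 0.50 ± 0.48 and -0.49 ± 0.26, the mesoderm factor Foxc1 0.53 ± 0.22, and Pax1 and Pax9 0.69 ± 0.30 and -0.28 ± 0.21, with adjusted p = 0.809, 0.613, 0.446, 0.475 and 0.75. Vegfa, the endothelial growth factor, was the 1 gene of 19 in the hypoxia and glycolysis list that passed (1.08 ± 0.19, adjusted p = 0.0164, list median -0.05), and it failed in 4 of the 12 fits (adjusted p up to 0.0547). Dcn was also the 1 of 23 imprinted genes that passed, with a list median of 0.12.

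In the other lists 0 genes passed by limma. Medians were -0.19 over 12 primed epiblast genes, -0.07 over 17 primitive streak genes, -0.02 over 20 neuron genes and 0.16 over 17 retinoic acid genes. They were 0.01 over 23 Hox genes, 0.01 over 22 BMP and TGF-beta genes, 0.06 over 18 Notch genes and -0.0001 over 18 blood and endothelium genes. For growth, they were -0.07 over 21 mitosis genes, -0.02 over 21 DNA replication genes, -0.0046 over 19 ribosomal protein genes and -0.04 over 20 nucleolus genes. In these lists the lowest p belonged to Rpl7 (1.08 ± 0.24, adjusted p = 0.0668), Pcna (-0.78 ± 0.21, adjusted p = 0.16), Crabp1 (0.79 ± 0.22, adjusted p = 0.187) and Id2 (0.65 ± 0.21, adjusted p = 0.256).

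Without the array set in the fit the median of all genes was -0.02, and many lists lay further from it. The medians were -0.63 for mitosis, -0.52 for DNA replication, -0.55 for the nucleolus, -0.43 for hypoxia, -0.39 for FGF-ERK feedback and -0.30 for p53. They were 0.32 for myogenic regulators, 0.29 for sarcomere genes, 0.24 for paraxial mesoderm, 0.32 for Pax genes, 0.21 for Hox genes and 0.22 for the primitive streak. The stress and immediate early lists were at 0.25 and 0.41, closer to all genes than with the set, and the naive pluripotency, parietal endoderm and sterol lists at -0.77, -0.70 and -0.99, further from them.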

How the data were processed

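RNA of mouse stem cells and embryoid bodies was measured on Affymetrix arrays. Each array's deposited table holds 1 log2 intensity for a probe set, and RMA and Partek are named without version or order, per the submitters' processing notes. The authors' array design and the joint or separate summary of the arrays are not given in the sources used here. Groups were taken from the titles. Of 41345 probe sets, 23521 have 1 gene symbol, 1814 several and 16010 none. Each of 22180 genes was read from its brightest probe set by mean level, a choice that applied to 1082 genes, with no filter on signal. Gene IDs of 21994 genes matched the reference.

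All 18 arrays were fitted with limma 3.58.1 under R 4.3.3 (linear model with moderated variances, no trend), with the 6 group means and the array set (wide where the standard deviation over probe sets exceeds 1.6) and 11 residual degrees of freedom. The threshold was 0.05 on p adjusted by Benjamini-Hochberg. Named were the 12 largest interactions each way among genes that passed, reached 2-fold and had 1 sign in both sets, up to 4 passing genes of each of 38 lists (up to 2 where 0 passed) and Pax7, passing over predicted symbols. The members, lists and alternatives were chosen with earlier results of these data known. Same-numbered arrays had residual correlations of -0.303 to 0.259 over 18 pairs, 4 above 0.1. With groups of 3 these cannot tell whether the numbers pair the samples, and the main fit does not pair them. The number of arrays limits precision: comparing 1 group of 3 with another, the smallest exact permutation p is 0.1. That value is no floor for the limma p of the interaction, which uses 4 groups and the spread of all 18 arrays. The code was tested on simulated data. Alternatives were other scalings, filters, probe summaries, limma options, array subsets, thresholds, a replicate block and leaving out each array. Figures used matplotlib 3.10.9 in Python 3.11.15.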

Additional observations from a re-analysis of the deposited data

Results flagged for a closer look

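The change between day 0 and day 7 differed between Pax7-/- and Pax7+/+ by the test of the interaction in 107 genes, of which 44 are named here with their interaction (log2).

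Matrix, adhesion and cytoskeletal genes with a more positive change in Pax7-/- were Tnc (2.81), Cdh11 (2.51), Timp2 (2.13), Ccn1 (2.11), Dcn (2.08), Slit2 (1.98), Myl9 (1.96), Timp1 (1.94), Acta2 (1.74), Ccn2 (1.68), Mmp2 (1.61), Thbs1 (1.52), Tagln (1.28), Tpm1 (1.14) and Vim (1.02). Stress, early response and signalling genes were Ccl2 (3.08), Ptgs2 (2.58), Herpud1 (2.17), Dusp1 (1.62), Ier3 (1.45), Ddit4 (1.21), Egr1 (1.17), Vegfa (1.08), Atf3 (1.04) and Slc3a2 (0.90), and the other positive genes were Ccnd2 (2.10), Snai2 (1.79) and Mef2a (0.87).

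Genes with a more negative change in Pax7-/- were those of the 2-cell-like list, Zscan4e (-4.76), Zscan4d (-3.07), Pramel20 (-2.83) and Tmem92 (-2.37), those of the parietal endoderm and basement membrane list, Lama1 (-2.30), Srgn (-2.29) and Nid2 (-0.86), the stem cell genes Zfp296 (-2.86) and Fbxo15 (-1.95), and Gjb5 (-1.78), Jam2 (-1.75), Ak4 (-1.64), Lgmn (-1.57), Epha4 (-1.41), Fdft1 (-1.15) and Perp (-1.13).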

How the results depend on the processing

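The count of 107 genes moved with several choices. It was 0 without the array set, 230 with the set by day, 74 on narrow and 464 on wide arrays alone, 209 after quantile normalization, 98 from the arrays of days 0 and 7 alone, and 40 and 195 at adjusted p under 0.01 and 0.10. Leaving out 1 array gave 49 to 213. With the replicate block it was 68, of which 65 are among the 107, and 2 of 12 arrays correlated best with their own number. Whether the replicate numbers pair the samples cannot be told from so few arrays, and the main fit does not pair them. The count was 106 after median centring, 129 after scaling to a common spread, 109 and 145 with genes above the 25th percentile or the median of mean level, 99 and 108 with other probe set summaries, and 109 and 106 with trend or robust options. The cause of these moves was not tested. All 44 named genes that passed kept their sign in every alternative, and 27 of them passed in all 12 fits with 1 array left out. The alternatives reuse the arrays on which these genes were chosen, so the kept signs follow in part from that choice. Of the 44, 10 missed the threshold with the replicate block, 6 from days 0 and 7 alone, 4 with a common spread, 2 with the robust option and all 44 without the array set. Signal over background was not analysed here.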

Other observations

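Genes outside the naming rule that passed, chosen after their values were seen, held further secreted and signalling genes. Igfbp7 and Igfbp4, which bind insulin-like growth factors or related ligands, had interactions of 1.78 ± 0.33 and 1.30 ± 0.23 (limma, adjusted p = 0.0225 and 0.0161). Igfbp7 fell by 1.27 in Pax7-/- and by 3.05 in Pax7+/+, whereas Igfbp4 rose by 1.40 in Pax7-/- and its Pax7+/+ step of 0.10 did not pass. With 1 array left out, Igfbp7 failed in 7 and Igfbp4 in 3 of 12 fits (adjusted p up to 0.0752 and 0.061). For Wnt signalling, the receptor gene Fzd7 had 1.34 ± 0.18 and Wls, the carrier of Wnt proteins to the surface, 1.03 ± 0.20 (adjusted p = 0.00221 and 0.0319). Both rose in Pax7-/-, by 0.83 and 0.73, and Wls failed in 9 of the 12 fits (adjusted p up to 0.0973). Hmga2, a chromatin protein of embryonic cells, rose by 1.05 in Pax7-/- (interaction 1.46 ± 0.19, adjusted p = 0.00188). Gja1, the gap junction protein connexin 43, fell by 0.94 in Pax7+/+ (1.39 ± 0.22, adjusted p = 0.00646), in contrast to the connexin gene Gjb5, which was negative.

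The snoRNA host genes Zfas1 and Snhg1 had 1.33 ± 0.19 and 0.97 ± 0.15 (adjusted p = 0.00329 and 0.00506) and fell in Pax7+/+ by 0.93 and 0.90. Among the negative genes, Tmem64, a membrane protein gene, stood higher in Pax7-/- at both days, by 0.78 at day 7 and by 2.27 at day 0 (adjusted p = 0.012 and 9.3e-08). It fell by 1.57 in Pax7-/- (interaction -1.49 ± 0.17, adjusted p = 0.00103). Glul, glutamine synthetase, rose by 0.74 in Pax7+/+ (interaction -0.61 ± 0.13, adjusted p = 0.0454), and it failed in 11 of the 12 fits (adjusted p up to 0.145).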
